A study of Mus musculus with 75 samples.

Results

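The thymus of 22-month-old mice was compared with the thymus of 3-month-old mice by RNA sequencing of the whole organ. The comparison used the libraries of aged mice 1, 2 and 3 and of young mice 1 and 3, which are 5 of the 75 samples of the series, 5 of its 63 tissue libraries and 5 of its 6 thymus libraries. They were chosen by organ and age. The thymus library of young mouse 2 was kept as a check, because genes of lymph nodes stood far higher in it than in the other thymi. The mice of both ages were untreated wild-type C57BL/6 animals perfused with phosphate-buffered saline, and each excised organ was frozen before its total RNA was extracted. The same mice also gave 10 other organs, with a few libraries missing. Each library comes from 1 mouse, so the spread between libraries is a spread between animals. The organ was not sorted into cell types, and any attached tissue was sequenced with it.

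The thymus is the organ in which T cells are made. Early double-negative thymocytes cut and rejoin their T cell receptor genes, become double-positive cells that carry CD4 and CD8, and are selected on cortical and then medullary epithelium before they leave as mature T cells. With age the organ shrinks, and fat cells and stroma take up a growing share of it, a process called involution. Medullary epithelial cells use the protein Aire to express many genes of other organs, so that T cells that react to them can be removed.

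Values are reads assigned to a transcript after a scaling by the authors, called scaled reads here, with 1 transcript shown per gene. Over the transcripts shown, the libraries held about 678609, 187827 and 388817 reads in aged mice 1, 2 and 3, against 376062 and 684163 in young mice 1 and 3. These numbers were rebuilt with the most frequent value above 0 in each column taken as 1 read. One read was worth 2.19 scaled reads in aged mouse 2, the shallowest library, and between 0.535 and 0.999 in the other 4, so low values of aged mouse 2 are coarse. All 5 libraries carried the markers of the organ. Rag1, an enzyme that cuts T cell receptor genes, lay between 331 and 703 scaled reads in them, and its highest value in the 47 libraries of the other 10 organs was 8.59. The highest values there were 1.81 for Foxn1, the master regulator of thymic epithelium, and 1.23 for Psmb11, a proteasome subunit of cortical epithelium. In whole-organ RNA, fewer cells of a type and less RNA per cell cannot be told apart. The summed genes of striated muscle reached 296 scaled reads in aged mouse 1, against 9.86 and 53 in aged mice 2 and 3 and 14.1 and 15.3 in young mice 1 and 3.

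Of 11081 genes with enough reads to test, 265 differed between aged and young thymi at a limma adjusted p under 0.05, which is 2.39% of them. The aged thymi were higher for 242 genes (2.18%) and lower for 23 (0.208%). The aged and young libraries did not overlap for any of these 265 genes, and for 3669 of all tested genes (33.1%). The median log2 change over all tested genes was -0.00052. The call rests on the variance that limma shares between genes of like level: without that trend no gene passed, with 1452 genes at an unadjusted p under 0.05, against 1621 with it. With 2 young libraries, each one matters. There were 56 calls without young mouse 1 and 83 without young mouse 3, all of them higher in aged thymi. With young mouse 2 added there were 130 calls (1.15% of genes tested), 124 higher (1.1%) and 6 lower (0.0533%), and 119 of the 130 are among the 265. A fit that weights each value by its precision (limma-voom) gave 232 calls (2.09%), of which 169 were higher (1.53%) and 63 lower (0.569%). The share of higher calls was 72.8% there and 91.3% in the fit reported.

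**Figure D1:**
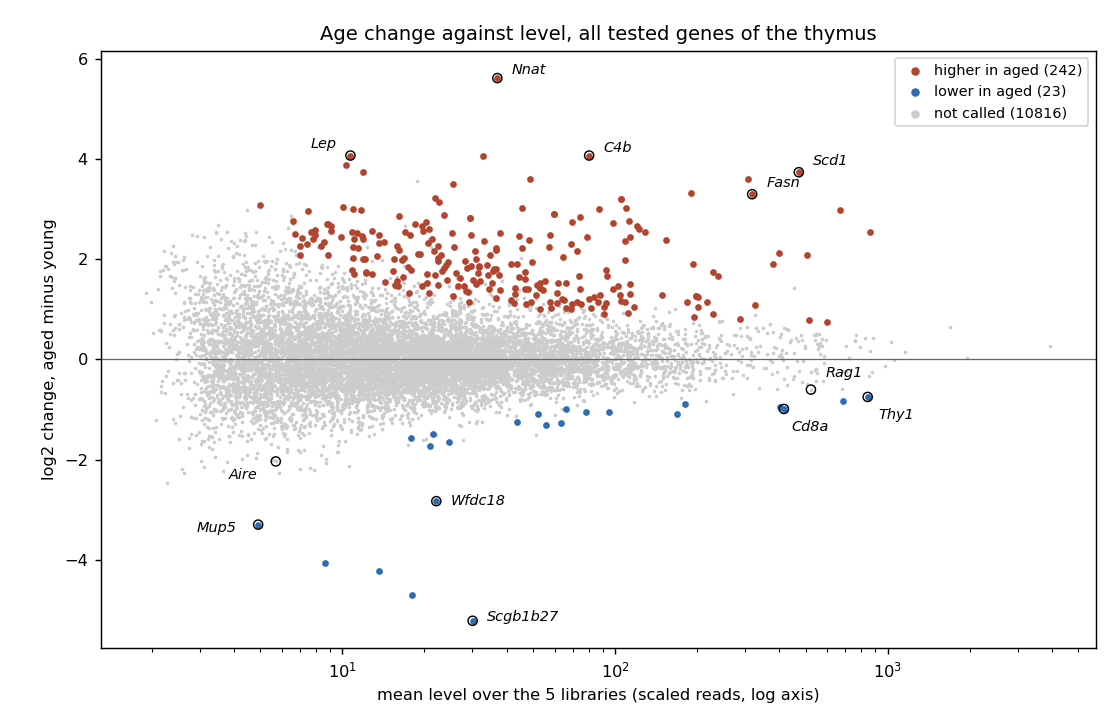
Fitted log2 change, aged minus young (vertical axis), against the mean level over the 5 libraries in scaled reads (horizontal log axis), with 1 point per tested gene. The 242 genes higher in aged thymi reach over the whole range of levels, whereas the 23 lower genes include some of small level with large changes, such as Scgb1b27, and some of high level with changes near -1, such as Cd8a and Thy1.

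Genes of fat cells and of fat synthesis rose together in aged thymi, and they include 6 of the 12 largest rises: Fasn, Scd1, Thrsp, Gpd1, Lep and Retn. Fasn, the synthase that builds fatty acids, had 638, 506 and 352 scaled reads in aged mice 1, 2 and 3, against 48.5 and 48.2 in young mice 1 and 3. Every aged thymus stood far above both young ones, and the log2 change was 3.30 ± 0.24 (SE, limma adjusted p = 1.96e-06). Scd1, which puts a double bond into the chains that Fasn makes, had 954, 624 and 669 scaled reads in aged thymi, against 77.3 and 38 in young thymi, a log2 change of 3.74 ± 0.27 (adjusted p = 1.96e-06). Thrsp, a protein that increases the activity of the pathway in fat and liver, had 351, 318 and 222 scaled reads in aged thymi, against 21.9 and 35.9 in young thymi, with a log2 change of 3.33 ± 0.26 (adjusted p = 2.43e-06). Gpd1, which makes the glycerol backbone of triglycerides, stood at 876, 247 and 341 scaled reads in aged thymi and 34.7 and 32.7 in young thymi. Its log2 change was 3.60 ± 0.38 (adjusted p = 0.000175), and it did not pass in limma-voom (0.192). In young mouse 2, Fasn had 75.7, Scd1 208, Thrsp 124 and Gpd1 38.9 scaled reads. All 4 lay below every aged library. With that library among the young thymi, Fasn and Gpd1 passed, whereas Scd1 (adjusted p = 0.0535) and Thrsp (0.104) did not.

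The list of fatty acid and triglyceride synthesis held 26 genes, all of them tested. Of these, 16 rose, none fell and 10 did not pass, where 2.18% of all tested genes rose. The median log2 change was 1.88. The genes that rose cover each step of the route. Slc25a1 exports citrate from mitochondria, Acly splits it in the cytosol and Acaca makes the building block of fatty acids. Their log2 changes were 2.22, 1.28 and 2.49. Me1, an enzyme that supplies reducing power, had a log2 change of 2.23, and Elovl6, which lengthens the chain, 2.49. Agpat2, Lpin1, Dgat1 and Dgat2, which join the chains to glycerol, ranged from 1.15 to 2.44 on the log2 scale. Among the 10 that did not pass were the genes that lengthen or desaturate polyunsaturated chains, Elovl5, Fads1 and Fads2, with log2 changes of -0.17, -0.03 and -0.05. Scd2, the desaturase of many tissues other than liver and fat, had 48.8, 59.1 and 31 scaled reads in aged thymi, against 47.5 and 54.1 in young thymi, so its groups overlapped. The transcription factors known to drive the route did not pass either: Srebf1 had a log2 change of 0.15 (adjusted p = 0.803) and Mlxipl of 1.12 (0.291). None of the 18 tested genes of cholesterol synthesis passed, in either direction, and their median log2 change was 0.11.

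The promoters of 3 of the genes that rose are printed here because Fasn, Thrsp and Slc25a1 changed together and each carries more than 1 copy of the CCAAT box, a short sequence bound by the factor NF-Y. The sequences are from RefSeq on build GRCm38.p6 and run 5′ to 3′ on the strand of the gene, from 250 bases before to 50 after the start of transcription. They lie at chr11:120824498-120824797, chr7:97417501-97417800 and chr16:17928170-17928469, each on the minus strand, and capitals mark CCAAT on either strand (ATTGG where it lies on the other one).
Fasn: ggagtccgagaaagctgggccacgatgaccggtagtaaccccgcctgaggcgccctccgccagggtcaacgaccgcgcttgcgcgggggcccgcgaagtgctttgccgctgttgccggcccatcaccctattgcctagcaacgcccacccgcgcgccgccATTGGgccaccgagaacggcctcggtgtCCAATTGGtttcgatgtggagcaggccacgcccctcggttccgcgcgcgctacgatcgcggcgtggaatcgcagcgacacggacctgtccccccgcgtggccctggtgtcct
Thrsp: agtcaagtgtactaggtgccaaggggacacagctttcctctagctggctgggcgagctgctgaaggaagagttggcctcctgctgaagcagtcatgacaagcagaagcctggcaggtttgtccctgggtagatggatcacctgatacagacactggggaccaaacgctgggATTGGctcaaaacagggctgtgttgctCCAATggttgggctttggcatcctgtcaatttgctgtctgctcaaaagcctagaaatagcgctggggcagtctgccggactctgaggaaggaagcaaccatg
Slc25a1: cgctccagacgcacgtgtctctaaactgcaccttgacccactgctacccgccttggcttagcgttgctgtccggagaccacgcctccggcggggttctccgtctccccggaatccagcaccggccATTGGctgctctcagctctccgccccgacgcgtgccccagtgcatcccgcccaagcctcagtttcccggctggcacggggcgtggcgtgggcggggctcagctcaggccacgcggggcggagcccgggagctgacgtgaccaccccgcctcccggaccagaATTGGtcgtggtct
Of the 26 genes of the list, 20 had a promoter in the table, and 14 of those (70%) held CCAAT on either strand, against 41.06% of the 27025 genes in the table. CACGTG, the E-box, was found for 4 of the 20 (20%, against 8.093%). TCACNCCAC, a form of the sterol regulatory element, was found for 2 (10%, against 1.436%). The direct repeat read by PPAR and RXR was found for none of them and for 0.0481% of all genes. In the Fasn promoter, matches of CCAAT on the 2 strands overlap. These are descriptions of letters in a window, and no binding was measured.

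Genes that mark the fat cell itself rose with the synthesis genes. Adipoq, the hormone adiponectin of fat cells, had 200.3, 159.9 and 329.8 scaled reads in aged thymi, against 45.6 and 36.9 in young thymi. The groups did not overlap, with a log2 change of 2.39 ± 0.27 (limma adjusted p = 0.000118), but young mouse 2 reached 173, within the aged range. Lep, the hormone leptin, had 13.8, 8.76 and 31 scaled reads in aged thymi and is listed at 0 in both young thymi used, so that it had enough reads for the test in aged libraries only (adjusted p = 0.00155); young mouse 2 had 1.6. Lipe, the hormone-sensitive lipase that releases fatty acids from stored fat, had 173, 118 and 157 scaled reads in aged thymi, against 20.8 and 22 in young thymi, a log2 change of 2.73 ± 0.24 (adjusted p = 7.82e-06). Plin1, which coats the fat droplet, had 167, 98.7 and 249.9 in aged thymi, against 18.8 and 27.3 in young thymi, a log2 change of 2.77 ± 0.32 (adjusted p = 0.000158). Aged mouse 2 was the lowest of the aged thymi for Adipoq, Lep, Lipe and Plin1 alike, and still stood above both young ones.

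The list of fat cell identity and storage held 26 genes, of which 25 were tested, and 3 of those had enough reads in aged libraries only. Of the 25, 18 rose, none fell and 7 did not pass, where 2.18% of all tested genes rose. Their median log2 change was 2.08, and 2.05 without Lep, which is at 0 in young thymi. Summed over the list, fat genes made up 1.32, 0.789 and 1.66% of the aged libraries, against 0.215 and 0.266% of the young ones and 0.867% of young mouse 2. The largest fitted changes among the rest were those of Retn, the hormone resistin (3.60), Adig, a small protein of fat cells (3.02), and Car3, an abundant carbonic anhydrase of fat (2.98). Cfd, the complement protease adipsin, had 748, 712 and 724 scaled reads in aged thymi, against 156 and 188 in young thymi, and 999 in young mouse 2, above every aged library. With young mouse 2 among the young thymi, 9 genes of the list and 12 of the synthesis list passed. Pparg, the factor that sets the fate of fat cells, had 24.7, 8.76 and 18 scaled reads in aged thymi, against 4.95 and 4.28 in young thymi; the groups did not overlap, and the log2 change of 1.59 ± 0.46 did not pass (adjusted p = 0.0928). Cebpa, a second such factor, rose, at a log2 change of 1.39 ± 0.27 (adjusted p = 0.0102).

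**Figure D2:**
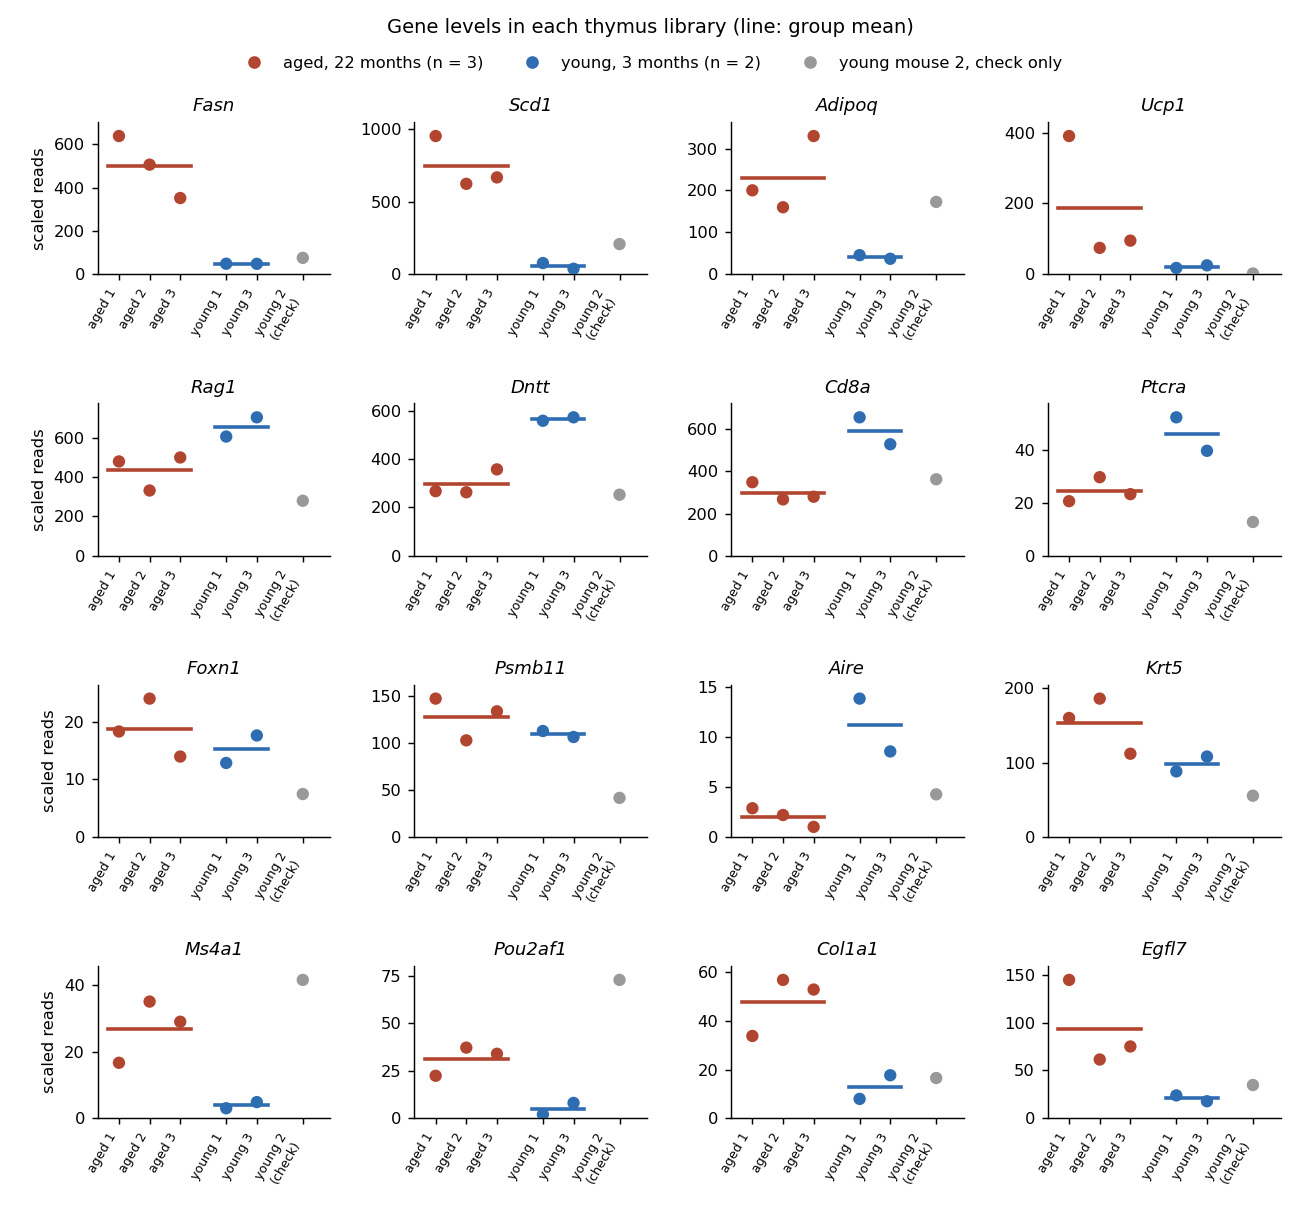
Level of 16 genes in each thymus library, in scaled reads on an axis from 0, with the mean of each group as a line; aged libraries are red, young ones blue, and young mouse 2, which is in no mean, grey. Fasn, Scd1, Adipoq and Col1a1 stand apart between the ages, Rag1, Dntt and Cd8a are lower in every aged library than in young mice 1 and 3, and Foxn1 and Psmb11 overlap.

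Genes of brown fat, which burns lipid for heat, rose as well, but 1 aged thymus dominated. Ucp1, the uncoupling protein that makes the heat, had 390.2, 74.5 and 94.9 scaled reads in aged mice 1, 2 and 3, against 17.8 and 25.2 in young mice 1 and 3. All aged values lay above the young ones, and the log2 change was 2.67 ± 0.53 (limma adjusted p = 0.0213). Cidea, a protein of the fat droplet, had 259.9, 37.2 and 53 scaled reads in aged thymi and 9.9 and 10.7 in young thymi. Of the 12 genes of this list, 7 were tested, of which 2 had enough reads in aged libraries only. Ucp1, Cidea, Cox8b, Cox7a1 and Elovl3 rose (2.18% of all tested genes rose), and none fell. The list made up 0.338, 0.0748 and 0.086% of the aged libraries, against 0.02 and 0.0264% of the young ones. Without aged mouse 1, the median log2 change was 2.01 in place of 2.67 and 4 genes passed, but without young mouse 1 none passed, without young mouse 3 only Elovl3 did, and limma-voom called none. Heart muscle genes stood high in aged mouse 1 as well. Myh6, a myosin of heart muscle, had 62.8 scaled reads in aged mouse 1 and is listed at 0 in all other thymus libraries. Actc1, Myl7, Tnnt2 and Mb had between 25.8 and 60.3 in aged mouse 1 and at most 1.07 elsewhere. Of the 15 genes of striated muscle, 2 were tested and neither passed. The part of heart muscle or of fat around it in the brown fat result was not tested.

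Some genes of developing T cells fell in aged thymi: Dntt, Cd8a, Cd8b1, Themis and Thy1. Dntt, the enzyme that adds random bases where receptor genes are joined, had 267, 263 and 358 scaled reads in aged thymi, against 559.6 and 574 in young thymi. The groups did not overlap, and Dntt fell by 0.95 ± 0.20 on the log2 scale (SE, limma adjusted p = 0.0147). Cd8a, 1 chain of the coreceptor CD8, had 349, 267 and 279.8 scaled reads in aged thymi, against 658 and 529 in young thymi, a log2 change of -0.99 ± 0.20 (adjusted p = 0.0121). The other chain, Cd8b1, had 608, 403 and 579 in aged thymi, against 975 and 876 in young thymi, a log2 change of -0.82 ± 0.20 (adjusted p = 0.0404). Themis, a signalling protein needed for the selection of double-positive cells, and Thy1, a surface protein of thymocytes that some fibroblasts also carry, fell too, with log2 changes of -1.05 ± 0.24 and -0.75 ± 0.18 (adjusted p = 0.0299 and 0.0395). None of these 5 passed when young mouse 1 or young mouse 3 was left out or when young mouse 2 was added. Young mouse 2, with its lymph node genes, had 253 scaled reads of Dntt and 363 of Cd8a, at or close to the aged range.

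Rag1 had 479, 331 and 499 scaled reads in aged thymi, against 605 and 703 in young thymi. Every aged value was below both young ones, but the log2 change of -0.60 ± 0.21 did not pass (limma adjusted p = 0.177). Its partner Rag2 had 20.7, 13.1 and 30.0 in aged thymi, against 49.5 and 48.7 in young thymi, with a log2 change of -1.24 ± 0.33 (adjusted p = 0.0591). Ptcra, the surrogate chain that pairs with the first rearranged receptor chain, had 20.7, 29.8 and 23.4 scaled reads in aged thymi and 52.6 and 39.9 in young thymi, a log2 change of -0.88 ± 0.28 (adjusted p = 0.142). In limma-voom, Rag2, Ptcra and Dntt passed and Rag1 did not. Of the 9 tested genes of recombination and the pre-T cell receptor, 1 fell, none rose and 8 had a fitted change below 0, with a median log2 change of -0.60, where 0.208% of all tested genes fell.

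The promoters of Rag1 and Ptcra are given because recombination and the first receptor check define the thymus and both promoters hold CAGCTG, an E-box read by E proteins such as the products of Tcf3 and Tcf12. They come from RefSeq (build GRCm38.p6) at chr2:101649483-101649782 and chr17:46763663-46763962, both on the minus strand and printed 5′ to 3′ over the same window as above, with CAGCTG in capitals.
Rag1: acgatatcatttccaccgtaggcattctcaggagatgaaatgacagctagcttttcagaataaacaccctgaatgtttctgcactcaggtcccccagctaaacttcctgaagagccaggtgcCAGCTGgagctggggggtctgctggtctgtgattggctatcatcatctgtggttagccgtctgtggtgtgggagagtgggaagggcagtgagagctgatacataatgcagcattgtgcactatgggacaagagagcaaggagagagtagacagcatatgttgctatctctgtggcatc
Ptcra: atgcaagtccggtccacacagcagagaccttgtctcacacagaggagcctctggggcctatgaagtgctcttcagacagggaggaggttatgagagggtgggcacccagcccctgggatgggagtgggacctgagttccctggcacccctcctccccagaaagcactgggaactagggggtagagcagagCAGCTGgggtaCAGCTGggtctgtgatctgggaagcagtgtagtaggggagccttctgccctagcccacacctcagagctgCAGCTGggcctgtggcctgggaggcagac
CAGCTG was present for 5 of the 9 genes of the list (55.56%) and for 18.29% of all genes in the table; CCAAT was present for 3 of the 9 (33.33%). Tcf3 itself had 81.5, 76.7 and 77 scaled reads in aged thymi and 94.2 and 91.8 in young thymi, and Tcf12 had 19.8, 23 and 38 in aged thymi, against 43.6 and 49 in young thymi; neither passed (adjusted p = 0.641 and 0.216).

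Among 22 double-positive thymocyte genes, 3 fell (Cd8a, Cd8b1 and Themis), none rose, and 20 had a fitted change below 0, where 0.208% of all tested genes fell. The median log2 change was -0.46. Cd4, the other coreceptor, had 385, 311 and 399.8 scaled reads in aged thymi, against 546 and 488 in young thymi. Its groups did not overlap and its log2 change of -0.51 ± 0.19 did not pass (adjusted p = 0.217). The 19 genes of T cell receptor signalling all had fitted changes below 0, with a median of -0.54 and 1 call (Thy1), where 5536 of all 11081 tested genes had a change above 0. Summed, the double-positive list made up 1.06, 0.859 and 1.15% of the aged libraries and 1.54 and 1.56% of the young ones, and the receptor signalling list 0.94, 0.755 and 0.947% of the aged libraries and 1.3 and 1.35% of the young ones. These medians kept their sign in all 16 other settings tried.

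Other stages of T cell life showed no call. None of 9 tested genes of early double-negative cells, 19 of selected and mature cells, 6 of regulatory T cells and 25 of cell proliferation passed in either direction. The medians were 0.15, 0.06, -0.36 and -0.15 on the log2 scale. Mki67, a marker of dividing cells, had 68.3, 99.3 and 75.1 scaled reads in aged thymi and 112 and 75.7 in young thymi. The cycle regulator Ccnd3 had 607, 579 and 547 in aged thymi, against 643 and 445 in young thymi. Both genes overlapped between the ages. Young mouse 2 stood apart in the mature list, which made up 0.36, 0.426 and 0.407% of the aged libraries, 0.35 and 0.419% of those of young mice 1 and 3 and 0.791% of that of young mouse 2. The median of that list changed sign in 6 of 16 other settings, among them young mouse 2 added (-0.53), equal totals (-0.03) and limma-voom (-0.16).

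**Figure D3:**
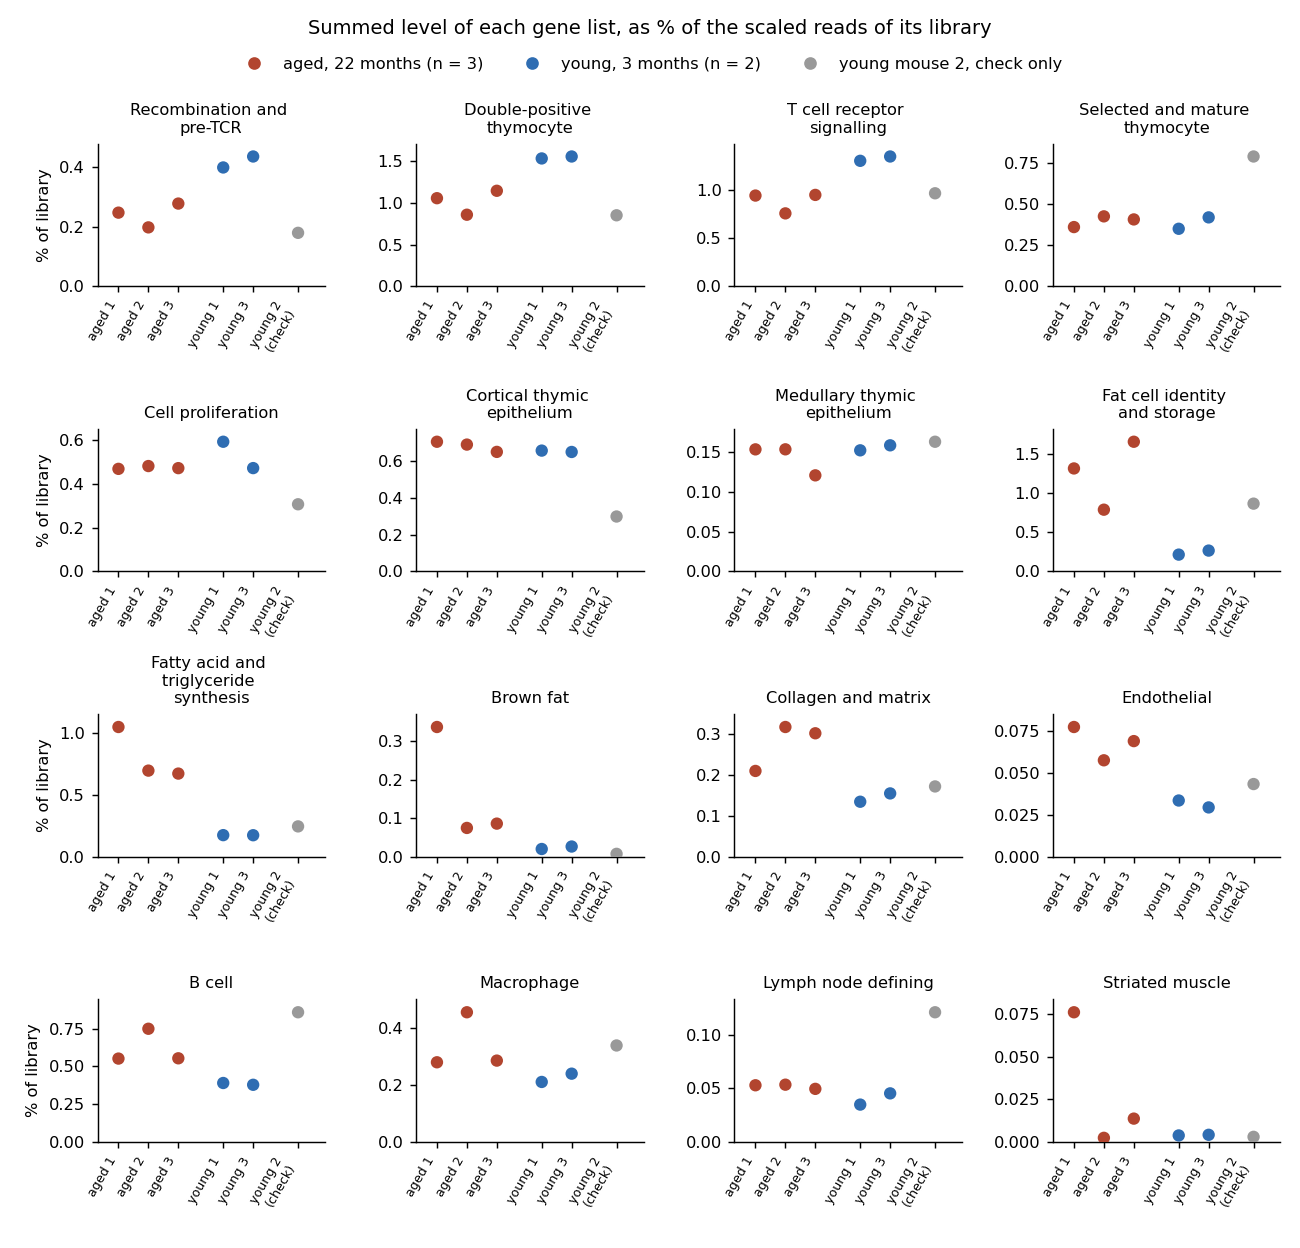
Summed level of 16 gene lists in each thymus library, as percent of the scaled reads of that library, on axes from 0. Recombination, double-positive and receptor signalling genes are lower in the 3 aged libraries than in young mice 1 and 3, fat and lipid synthesis genes are higher, and cortical and medullary epithelium genes are close; striated muscle and brown fat genes peak in aged mouse 1, and lymph node genes in young mouse 2.

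No gene of the epithelial lists passed the limma test between the ages. Some genes of the cortex and the medulla had lower values in every aged thymus than in young mice 1 and 3. Others had higher values in every one, such as Ccl25 and Tbata of the cortex and Ltbr and Krt5 of the medulla. The ages did not overlap for 6 of 18 tested cortical and 12 of 19 tested medullary genes, against 33.1% of all tested genes. Foxn1 had 18.4, 24.1 and 14 scaled reads in aged thymi, against 12.9 and 17.7 in young thymi, and Psmb11 had 147, 103 and 134 in aged thymi, against 113 and 107 in young thymi. The ages overlapped for both, with log2 changes of 0.27 ± 0.35 and 0.21 ± 0.22 (limma adjusted p = 0.779 and 0.718). Ccl25, a chemokine of cortical epithelium that draws in precursors, had 349, 472 and 339 scaled reads in aged thymi, against 253 and 264 in young thymi; its groups did not overlap and its log2 change of 0.56 ± 0.20 did not pass (adjusted p = 0.19). Of 20 genes of cortical epithelium 18 were tested, and none rose or fell. Fitted changes were above 0 for 12 of the 18 and below 0 for 6. In limma-voom 1 gene of the list passed, Ackr4 (adjusted p = 0.0473). It had 12.1, 11 and 9.99 scaled reads in aged thymi, against 19.8 and 34.3 in young thymi. The median log2 change was 0.24, and the list made up 0.704, 0.688 and 0.649% of the aged libraries and 0.656 and 0.648% of the young ones.

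Of 26 genes of medullary epithelium 19 were tested, of which 2 had enough reads in aged libraries only and 2 in young libraries only. None passed in either direction, and the median log2 change was 0.08, which changed sign in 7 of 16 other settings, limma-voom and equal library totals among them. In limma-voom 1 gene of the list passed, the keratin Krt17, which was lower in every aged thymus than in young mice 1 and 3 (adjusted p = 0.0387). Aire had 2.87, 2.19 and 0.999 scaled reads in aged thymi, against 13.9 and 8.57 in young thymi and 4.26 in young mouse 2. Every aged value was lower than every young one, at levels of a few reads, and the log2 change of -2.04 ± 0.60 did not pass (adjusted p = 0.104). Fezf2, the other factor known for this kind of gene expression, had 7.46, 2.19 and 2 scaled reads in aged thymi, against 8.91 and 10.2 in young thymi (log2 change -1.28 ± 0.58, adjusted p = 0.316). The keratin Krt10 and the claudins Cldn3 and Cldn4 had lower values too, with log2 changes of -1.20, -1.04 and -0.91, none called. Krt5, a keratin of medullary epithelium, pointed the other way, with 160.1, 186 and 112 scaled reads in aged thymi and 88.2 and 108 in young thymi (log2 change 0.61 ± 0.24, adjusted p = 0.236).

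The genes with the largest falls encode products of glands. Scgb1b27, an androgen-binding protein of the secretoglobin family, is listed at 0 in all 3 aged thymi and had 142 and 8.57 scaled reads in young mice 1 and 3 (limma adjusted p = 0.00431). Scgb2b27, of the same family, had 0.574, 0 and 0 in aged thymi, against 79.2 and 10.2 in young thymi. Car6, the secreted carbonic anhydrase of saliva, had 0.574, 0 and 0 in aged thymi, against 61.4 and 6.42 in young thymi, and Prol1, a proline-rich secreted protein, is listed at 0 in aged thymi and had 36.6 and 6.42 scaled reads in young thymi. Mup5, a major urinary protein of a cluster whose copies share reads, had 0.0977, 0 and 0.999 in aged thymi, against 12.4 and 11.1 in young thymi. Both young thymi stood above every aged one, and young mouse 1 was above young mouse 3 for all 5 genes. Young mouse 2 had at most 1.07 scaled reads of each, like the aged thymi. All 5 had enough reads for the test in young libraries only. The adjusted p-values ran from 0.00387 to 0.034. All 5 lost the call with young mouse 2 added, and limma-voom called Mup5 alone. Without either young library too few libraries held reads for a test.

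Saliva genes, chosen after these values were seen, were looked at for attached gland. Bpifa2, the main secretory protein of the parotid gland, had 0, 11 and 14 scaled reads in aged thymi, against 4.95 and 0 in young thymi, and Smr3a, of the submandibular gland, 0.574, 4.38 and 7 in aged thymi, against 1.98 and 0.535 in young thymi. Such levels were also found in other organs. In hippocampus, Bpifa2 ran from 2.62 to 22.2 scaled reads and Smr3a from 0 to 19.5. The medians over the 47 libraries of the other 10 organs were 7.74 and 3.04. Values this low therefore cannot show whether gland was attached. In the cervical lymph nodes, which lie beside the parotid and submandibular glands, Bpifa2 reached 70559 scaled reads. Car6 reached 2949.8 and Scgb1b27 555, all in aged mouse 2. In the cervical nodes of aged mouse 1, Scgb1b27 had 86 scaled reads with 26172 of Bpifa2. The cervical nodes of aged mouse 3 had 22.5 scaled reads of Scgb1b27 with 56.2 of Bpifa2. Whether the lower level of Aire or an attached gland has a part in the falls was not tested.

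**Figure D4:**
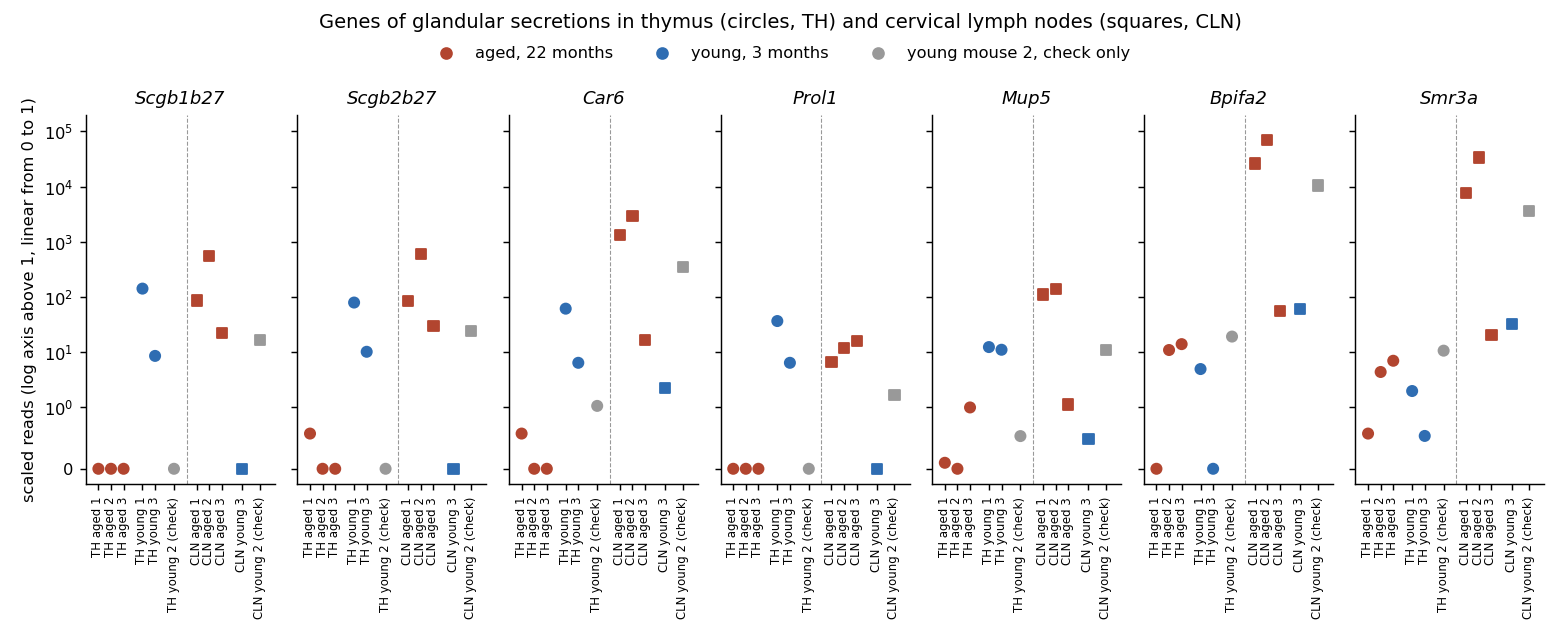
Level of 7 genes of glandular secretions in each thymus library (circles, TH) and each cervical lymph node library (squares, CLN), in scaled reads on an axis that is linear from 0 to 1 and logarithmic above. Scgb1b27, Scgb2b27, Car6 and Prol1 are at or near 0 in the aged thymi and above 5 in young mice 1 and 3, whereas the saliva genes Bpifa2 and Smr3a stay below 15 in these 5 thymi and reach 70559 (Bpifa2) and 33656 (Smr3a) in the cervical nodes of aged mouse 2.

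The remaining genes among the 12 largest falls were of mixed function, at lower changes. Wfdc18, a secreted protease inhibitor, had 15.5, 6.57 and 0.999 scaled reads in aged thymi, against 43.6 and 43.9 in young thymi, a log2 change of -2.83 ± 0.65 (limma adjusted p = 0.034). Reg3g, an antibacterial lectin of the gut, had 13.2, 13.1 and 6 in aged thymi, against 36.6 and 35.9 in young thymi, a log2 change of -1.73 ± 0.38 (adjusted p = 0.0208). The deubiquitinase Stambpl1, the ubiquitin ligase adaptor Wsb1, the precursor of a let-7 microRNA (Mirlet7i), the guanylate-binding protein Gbp8 and the chromatin protein Mier1 fell by between 1.26 and 1.65 on the log2 scale. None of these 7 passed without young mouse 1 or without young mouse 3, and Reg3g and Wsb1 passed with young mouse 2 added.

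Among the 12 largest rises, 5 genes lie outside the lists. Nnat, a small membrane protein first known from the developing brain, had 24.1, 35 and 126 scaled reads in aged thymi and is listed at 0 in both young thymi (limma adjusted p = 3.49e-05). C4b, complement component 4, had 73, 167 and 148 in aged thymi, against 3.96 and 9.82 in young thymi, a log2 change of 4.07 ± 0.37 (adjusted p = 1.37e-05). C4a, its near copy that shares reads with it, had 17.3, 55.1 and 49.5 in aged thymi, against 0.99 and 4.46 in young thymi, so the split between the pair is uncertain. Slpi, a protease inhibitor of secretions and myeloid cells, had 18.9, 123 and 18 scaled reads in aged thymi and 0 and 3.75 in young thymi, with 1 aged library far above the other two (adjusted p = 0.0122). Apol6, of the apolipoprotein L family, had 14.3, 13.1 and 31 in aged thymi, against 0 and 1.07 in young thymi (log2 change 3.74 ± 0.56, adjusted p = 0.00136). Nnat, Slpi and Apol6 had enough reads for the test in aged libraries only. Nnat, Slpi and C4a did not pass in limma-voom, and C4b, C4a and Slpi not with young mouse 2 added.

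Most tested stromal genes had a fitted change above 0, but only a minority of each list passed. The change was above 0 for 18 of 21 collagen and matrix genes, 13 of 15 fibroblast and mesenchyme genes and 14 of 15 endothelial genes. Among smooth muscle and pericyte genes it was above 0 for 5 of 8, and among all 11081 tested genes for 5536. Enough reads in aged libraries only were found for 2 of the matrix, 3 of the fibroblast and 7 of the endothelial genes. The filter favours a change above 0 for such genes, so these counts cannot be set directly against that of all genes. Col1a1, the main chain of collagen I, had 33.9, 56.9 and 53 scaled reads in aged thymi, against 7.92 and 17.7 in young thymi. The groups stood apart, with a log2 change of 1.89 ± 0.35 (limma adjusted p = 0.00708), and the gene also passed with young mouse 2 added. Sparc, a matrix protein of stroma and fat, had 121, 140.2 and 187 in aged thymi, against 61.4 and 56.2 in young thymi (log2 change 1.31 ± 0.23, adjusted p = 0.00496). Of 23 collagen and matrix genes, 21 were tested, 2 of them with enough reads in aged libraries only. Col1a1, Sparc, Timp2, Dcn, Col4a1 and Mgp rose (2.18% of all tested genes rose), none fell, and the median log2 change was 0.93. Col3a1, a further fibrillar collagen, had 18.9, 46 and 29 in aged thymi, against 12.9 and 21.4 in young thymi, and overlapped. No gene of this list passed without young mouse 1, and 2 passed without young mouse 3.

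Of 20 fibroblast and mesenchyme genes, 15 were tested, of which 3 had enough reads in aged libraries only. Ly6a, S100a4, Clec3b, Dpt and Gsn rose, and Thy1, which thymocytes carry in abundance, was the 1 that fell, where 2.18% of all tested genes rose and 0.208% fell. Ly6a, the stem cell antigen Sca-1, had 120.2, 228 and 116 scaled reads in aged thymi, against 40.6 and 64.7 in young thymi (log2 change 1.50 ± 0.29, adjusted p = 0.0102). Dpt, the matrix protein dermatopontin of fibroblasts, had 39.6, 74.5 and 97.9 in aged thymi, against 24.8 and 21.4 in young thymi (log2 change 1.48 ± 0.33, adjusted p = 0.0225). Pdgfra, a growth factor receptor that marks mesenchyme, had 4.02, 2.19 and 0 scaled reads in aged thymi and 0 and 2.14 in young thymi, too few for a test. The median log2 change was 1.09. Without young mouse 1, none of these 5 rises passed.

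Of 18 endothelial genes, 15 were tested, of which 7 had enough reads in aged libraries only. Egfl7, a protein that vessels secrete, had 145, 61.3 and 75 scaled reads in aged thymi, against 23.8 and 17.7 in young thymi, a log2 change of 2.04 ± 0.32 (limma adjusted p = 0.00193). Flt1, a receptor for vascular growth factor, had 15.5, 11 and 13.1 in aged thymi, against 1.98 and 2.68 in young thymi, a log2 change of 2.09 ± 0.46 (adjusted p = 0.0235). These 2 rose and none fell, where 2.18% of all tested genes rose. The median log2 change of the list was 0.90, and the filter favours high values for the 7 genes with enough reads in aged libraries only. Flt1 had enough reads in aged libraries only. Pecam1, a general vessel marker, had 36.7, 56.9 and 43 scaled reads in aged thymi, against 43.6 and 36.4 in young thymi. Cdh5, the cadherin of vessels, had 4.02, 4.38 and 5 in aged thymi, against 2.97 and 4.28 in young thymi, and both genes overlapped between the ages. Of 8 tested smooth muscle and pericyte genes, 1 rose, against the same background of 2.18%: Des, an intermediate filament of muscle cells (log2 change 1.76 ± 0.40, adjusted p = 0.0259). Tagln, an actin-binding protein of smooth muscle, had 17.8, 11 and 28 scaled reads in aged thymi and 34.7 and 54.6 in young thymi (adjusted p = 0.0929).

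**Figure D5:**
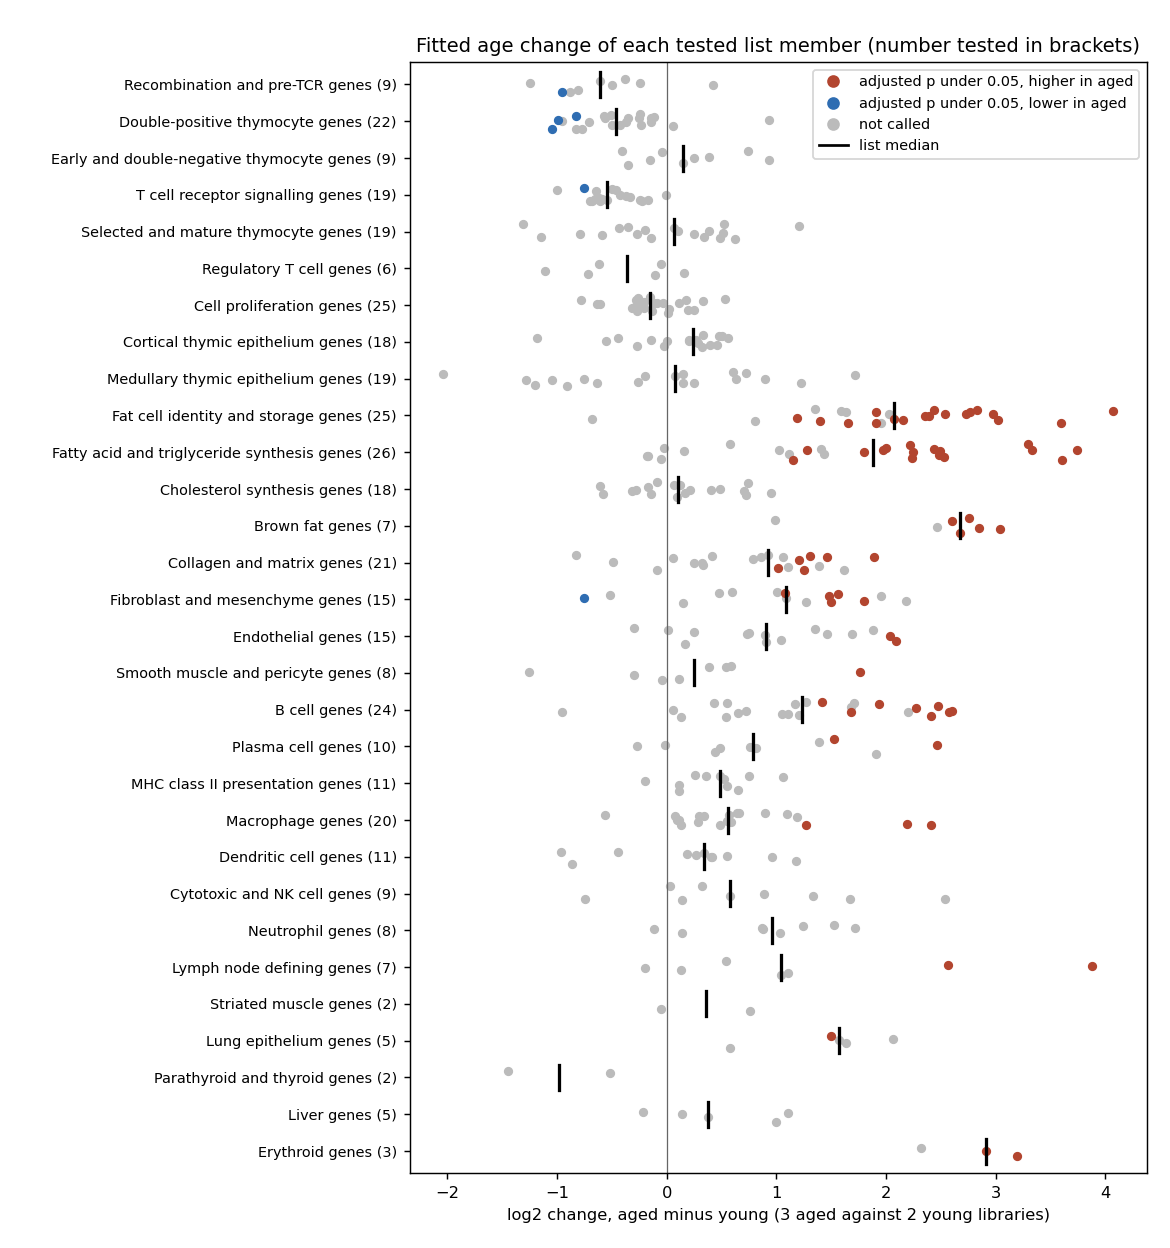
Fitted log2 change, aged minus young, of every tested member of 30 gene lists, with 1 point per gene, coloured where the adjusted p was under 0.05, and a bar at the list median. Most genes of the 2 fat lists (24 of 25 and 22 of 26) lie right of 0, with medians of 2.08 and 1.88. Most double-positive thymocyte genes (20 of 22) and all 19 receptor signalling genes lie left of 0, with medians of -0.46 and -0.54, and cortical and medullary epithelium genes spread around 0.

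Of the B cell genes, 8 rose in the aged thymi relative to young mice 1 and 3, and the summed list was highest in young mouse 2. Ms4a1, the B cell surface protein CD20, had 16.6, 35 and 29 scaled reads in aged thymi, against 2.97 and 4.82 in young thymi and 41.6 in young mouse 2. Among the 5 libraries compared, the ages did not overlap, with a log2 change of 2.48 ± 0.41 (limma adjusted p = 0.00321). Pou2af1, a coactivator of B cells, had 22.4, 37.2 and 34 in aged thymi, against 1.98 and 8.03 in young thymi, a log2 change of 2.60 ± 0.45 (adjusted p = 0.00431), and Blk, a B cell kinase, 36.2, 26.3 and 26 in aged thymi, against 8.91 and 1.61 in young thymi, a log2 change of 2.57 ± 0.48 (adjusted p = 0.00731). Of 27 B cell genes, 24 were tested, of which 5 had enough reads in aged libraries only. Ms4a1, Pou2af1, Blk, Cd22, Cd79a, Cd79b, Cd72 and Tnfrsf13c rose (2.18% of all tested genes rose), none fell, and the median log2 change was 1.24. The list made up 0.552, 0.749 and 0.553% of the aged libraries, against 0.39 and 0.378% in young mice 1 and 3 and 0.858% in young mouse 2. Most of each of these sums is Cd74, which is also in the list of MHC class II presentation and was not called (limma adjusted p = 0.0862). Cd74 had 1838, 2464 and 1681 scaled reads in aged thymi, 1290 and 1213 in young mice 1 and 3, and 2327 in young mouse 2. The summed list therefore says little about the other B cell genes. With young mouse 2 added, none passed; without young mouse 1, Blk alone did.

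Of 12 genes that define lymph nodes, 7 were tested, of which 3 had enough reads in aged libraries only, Glycam1 and Cxcl13 among them. Glycam1, a mucin of the vessels through which lymphocytes enter nodes, had 41.3, 6.57 and 13 scaled reads in aged thymi, against 1.98 and 1.61 in young thymi and 177 in young mouse 2. Cxcl13, the chemokine that gathers B cells into follicles, had 16.6, 17.5 and 17 in aged thymi, against 0 and 0.535 in young mice 1 and 3 and 5.86 in young mouse 2. These 2 rose (adjusted p = 0.0333 and 0.000587), where 2.18% of all tested genes rose, and none fell. Young mouse 2 was set aside because of its lymph node genes, so this comparison is not independent of that choice. With that library added, Glycam1 did not pass (limma adjusted p = 0.936) and Cxcl13 did (0.0268). In young mouse 2, Glycam1 lay above every aged thymus and Cxcl13 below every one. Summed over the list, aged thymi had 206, 219.7 and 192 scaled reads, against 129.7 and 166 in young thymi and 476 in young mouse 2. Madcam1, an addressin of mucosal lymphoid tissue, had at most 0.999 in the aged thymi, is listed at 0 in young mice 1 and 3 and had 9.06 in young mouse 2. Cr2, of follicular cells and B cells, had at most 5 in these 5 thymi and 15.5 in young mouse 2. The part of attached lymph node in the B cell result was not tested.

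Plasma cell, macrophage and blood genes rose in part. Jchain, which joins secreted antibodies, had 91.8, 120.5 and 59 scaled reads in aged thymi, against 23.8 and 36.4 in young thymi (log2 change 1.53 ± 0.30, limma adjusted p = 0.0104), and Mzb1, which helps antibodies fold, 47.1, 129 and 28 in aged thymi, against 8.91 and 9.64 in young thymi (log2 change 2.46 ± 0.47, adjusted p = 0.0127). These were the 2 calls among 10 tested plasma cell genes, where 2.18% of all tested genes rose. Among 20 macrophage genes 3 rose, against the same 2.18%, and none fell: Cd163, the scavenger receptor for haemoglobin, had 16.6, 37.2 and 43 in aged thymi, against 3.96 and 5.89 in young thymi (log2 change 2.41 ± 0.42, adjusted p = 0.00449). Gpnmb, a protein of lipid-laden macrophages, had 21.2, 24.1 and 26 in aged thymi, against 2.97 and 6.42 in young thymi (log2 change 2.19 ± 0.40, adjusted p = 0.00609), and the transcription factor Maf also rose. Haemoglobin transcripts, which mark blood left in an organ, were higher in aged thymi. Hba-a1, whose reads are shared with its copy Hba-a2, had 57.3, 271 and 169.9 scaled reads in aged thymi, against 13.4 and 15.2 in young thymi (log2 change 3.19 ± 0.46, adjusted p = 0.00169, and 0.302 in limma-voom), and the erythroid list summed to 0.0259, 0.107 and 0.0701% of the aged libraries and 0.00771 and 0.00699% of the young ones. No gene of antigen presentation by MHC class II (11 tested), dendritic cells (11), cytotoxic cells (9) or neutrophils (8) passed in either direction.

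The same mice gave 10 other organs, so the change with age in the thymus could be set against the mean change in the others. The set was incomplete. Without young mouse 2, the young side of bone marrow and of cervical lymph nodes was young mouse 3 alone, and liver had no library of aged mouse 2. This difference passed for 61 of 15705 tested genes (0.388%), with the thymus higher for 45 (0.287%) and lower for 16 (0.102%), by limma with the mouse as a term and without the libraries of young mouse 2. None of the 52 genes of the 2 fat lists was among them. Fasn changed by 3.01 more on the log2 scale in thymus than in the mean of the others (adjusted p = 0.253), and Adipoq by 2.10 more (0.727). Adipoq spanned 0 to 1917 scaled reads in the 47 libraries of the other organs, with the highest value in an inguinal lymph node library.

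On the lower side, the 5 largest differences were those of the gland genes. The difference was -5.90 for Scgb1b27, -5.41 for Car6, -5.39 for Scgb2b27, -4.40 for Prol1 and -3.58 for Mup5 on the log2 scale (adjusted p between 3.99e-09 and 0.0426). Cervical lymph nodes enter the mean of the others, and each aged library there had more of these genes than young mouse 3. Car6 had 1333, 2950 and 16.9 scaled reads there in aged mice 1, 2 and 3, against 2.28 in young mouse 3. The cervical nodes of young mouse 2, not used in this fit, had 351 of Car6 and 10.8 of Mup5. Both values lay above those of aged mouse 3 (16.9 and 1.12). For Scgb1b27, Scgb2b27 and Prol1, young mouse 2 lay below every aged library. In the same fit, the mean log2 change of the other organs was 0.28 for Scgb1b27, 0.71 for Car6 and 0.50 for Scgb2b27. It was 0.23 for Prol1 and 0.57 for Mup5. The change in thymus was -5.62, -4.70, -4.89, -4.17 and -3.01 for these genes in the same order. The part of the cervical nodes alone was not tested. Aire passed in this fit, which shares its spread over all organs, with a difference of -2.27 ± 0.46 (adjusted p = 0.0121), and so did Trpm5, a channel of tuft cells (-2.17, adjusted p = 0.0375). Trpm5 had 0.574, 0 and 0 scaled reads in aged thymi, against 1.98 and 6.96 in young thymi, under the depth that the thymus test asked for. On the higher side stood Nnat (4.41), the atrial myosin chain Myl4 (3.86), C4b (3.32), Elovl3, a fatty acid elongase of brown fat (3.27), and the neuronal membrane protein Gpm6a (2.87). Myl4 had 78, 11 and 4 scaled reads in aged mice 1, 2 and 3, so that aged mouse 1, which also carried Myh6, held the highest level. Among the 5 thymi compared, Scgb1b27, Prol1, Nnat and Gpm6a are listed at 0 in every thymus of 1 age, so their sizes depend on the pseudocount and are no bounds. The B cell genes Ms4a1, Pou2af1 and Cd22 and the endothelial genes Kdr and Egfl7 had a higher change in thymus than in the mean of the other organs, by between 1.54 and 2.53. With the libraries of young mouse 2 added, 4 genes passed, Prol1 and Elovl3 among them.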

How the data were processed

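Organs of 22-month-old and 3-month-old C57BL/6 mice were sequenced by the authors. Reads were aligned with TopHat to build mm9, per the submitters' processing notes. Tool versions and how reads were counted and scaled are not stated in any source used. The deposited table gives 1 signal value per RefSeq transcript and library, which is a weighted read count multiplied by 1 factor per library, as far as its steps show. Between 78.7% and 83.7% of values above 0 in the thymus libraries were whole multiples of the value taken as 1 read (tolerance 0.001), too few for a count test. The table holds 25865 transcripts of 20680 genes, and each gene is represented by its transcript of highest mean. One column that matched no sample was not used.

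Values were taken as log2(value + 0.990451), where the pseudocount is the median value worth 1 read, so fold changes of low genes are understated. A gene was tested where at least 2 of the 5 libraries exceeded 3.961804 scaled reads. Aged and young thymi were compared with limma 3.58.1 in R 4.3.3 (mean-variance trend, robust settings, Benjamini-Hochberg adjustment over all tested genes, adjusted p under 0.05). An exact permutation test of 3 against 2 libraries cannot go below p = 0.1, so none was used. The difference from the other organs was fitted with limma over all organs, with mouse as a term. The fit was tested on simulated data with known changes. Python 3.11.15 with pandas 2.3.3 and numpy 2.4.6 was used for the rest.

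The libraries, the 30 gene lists (481 genes) and the rules were chosen with earlier results of these data known. Genes were named by a rule: the 12 largest rises and the 12 largest falls among called genes whose ages do not overlap, up to 4 genes of each list with the smallest p, a set of defining genes, and the 5 highest and 5 lowest called in the difference from other organs. Further members of the lists named in the text were chosen after their values were seen, to show genes of the same route that did not pass or that bear on the cell types. Replicate numbers name different mice in the ages. Alternatives covered the pseudocount, the filter, the variance model, limma-voom, the scaling, the transcript kept and each library left out. Results of a few genes that these rules name are not reported here.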

Additional observations from a re-analysis of the deposited data

Results flagged for a closer look

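For 17 genes, the change with age in the thymus differed from the mean change in the other 10 organs by limma (adjusted p under 0.05). The difference on the log2 scale was -5.90 for Scgb1b27, -5.41 for Car6, -5.39 for Scgb2b27, -4.40 for Prol1 and -3.58 for Mup5, the 5 genes of glandular secretions. It was -2.27 for Aire and -2.17 for Trpm5, genes of medullary epithelium. It was 4.41 for Nnat, 3.86 for Myl4, 3.32 for C4b, 3.27 for Elovl3 and 2.87 for Gpm6a. Among vessel genes it was 1.54 for Kdr and 1.93 for Egfl7, and among B cell genes it was 2.22 for Ms4a1, 2.29 for Pou2af1 and 2.53 for Cd22. Among the 5 thymi compared, Scgb1b27, Prol1, Nnat and Gpm6a are listed at 0 in every thymus of 1 age, so the size of their difference depends on the pseudocount. These are the members of the lists and the 5 highest and 5 lowest among the 61 genes that passed.

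The thymus library of young mouse 2, which no comparison of the main fit uses, held 476.2 scaled reads of the lymph node defining genes, against 192 to 219.7 in the aged thymi and 129.7 to 166 in young mice 1 and 3. Its B cell genes summed to 3377 scaled reads, against 2148 to 3081 in the aged thymi and 1385 to 1453 in young mice 1 and 3. Cd74 alone gave 2327 of the 3377 scaled reads, and most of the sum in each other thymus too. The lymph node sum is not an independent finding, because the library of young mouse 2 was set aside for such genes.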

How the results depend on the processing

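The 265 calls in the thymus became 163 with a pseudocount of a fraction of a read, 130 without the filter, 0 by limma without the mean-variance trend, 130 with young mouse 2 added, and 56 to 378 when a library was left out. Of 63 named genes called, between 38 and 63 kept the call under the other pseudocounts, filter, scalings, transcript choice, robust setting and limma-voom, 21 did with young mouse 2 added, 19 without young mouse 1 and 26 without young mouse 3. None of these 63 changed direction in any of the settings. The ages share replicate numbers, but these name different mice, so they were not taken to pair them. Deviations of same-numbered mice correlated at 0.057 (mice 1) and 0.022 (mice 3). With 2 young libraries the young deviations mirror each other, so these correlations cannot decide on pairing. The replicate block gave 702 calls, which include all 63 named genes. Equal library totals moved the median of all genes by -0.098. The 61 genes that differed from the other organs became 35 by limma-voom, 4 with young mouse 2 added, 174 without the inguinal node library of aged mouse 3 and 9 to 48 when a thymus library was left out. The causes of these shifts were not tested.

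Uncalled genes that changed sign were Klf2 (-0.063), Ccl5 (-0.20), Alb (-0.17) and Tnfrsf4 (-0.42) with young mouse 2 added, Tnfrsf4 (-0.13) by limma-voom, and Tnni2 with a larger pseudocount (0.056) and with the replicate block (0.27). With 1 library left out, log2 changes ran between -1.62 and 0.20 for Ctla4, -0.49 and 0.81 for Tnfrsf4, -0.0054 and 2.67 for Tbx21, -0.094 and 0.38 for Tnni2, -1.14 and 0.11 for Chga, and -0.46 and 0.029 for Apoa1. Depth limits low genes most in aged mouse 2, where 1 read is worth 2.19 scaled reads.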

Other observations

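A list of 24 genes of the type I interferon response was chosen after the other lists and their results were known. Of these, 21 were tested and none passed in either direction by limma, with a median log2 change of 0.25 and 6 genes whose ages did not overlap, where 33.1% of all tested genes did not. Irf7, a regulator of the response, had 39.6, 74.5 and 41 scaled reads in aged thymi, against 19.8 and 31.1 in young thymi (log2 change 0.97, limma adjusted p = 0.153). Ifit1, which binds foreign RNA, had 17.4, 41.6 and 15 scaled reads in aged thymi, against 13.9 and 23.6 in young thymi, and overlapped. None of the 24 differed from the mean change of the other organs.

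Genes of other organs were measured as well. Of 10 lung epithelium genes, 5 were tested, 1 of them with enough reads in aged libraries only, and the median log2 change was 1.57. Napsa, a protease of lung epithelium, rose, where 2.18% of all tested genes rose, with 18.4, 21.9 and 24 scaled reads in aged thymi, against 5.94 and 8.03 in young thymi (log2 change 1.49, limma adjusted p = 0.0386). Young mouse 2 had 43 scaled reads of it, above every aged thymus, and with that library added, or in limma-voom, no gene of the list passed. Pth, the hormone of the parathyroid gland, had 9.18, 2.19 and 6 scaled reads in aged thymi, against 27.7 and 8.57 in young thymi (adjusted p = 0.237). Ttr, a carrier of thyroid hormone in the liver list, had 109.6, 307 and 305 in aged thymi, against 104 and 96.4 in young thymi (adjusted p = 0.152). Of the 5 tested genes of that list none passed, and the ages overlapped for all but Ttr. The log2 change was 0.38 for Alb and -0.21 for Apoa1. The part of attached or carried-over tissue in these values was not tested.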
